A study of Leymus chinensis with 14 samples.

Results

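Locus g79474 is 1 of the 29560 loci to which the assembled leaf transcripts of the forage grass Leymus chinensis (sheepgrass) were summed, and 1 of the 20567 that passed the filter on low values. It was taken because its Swiss-Prot name is 9-cis-epoxycarotenoid dioxygenase NCED3 and it was chosen by its measured abundance in these libraries across salt and light. Its own levels are therefore given as a description, with no test. The study asked which regulatory genes of the leaf respond to salt and to low light. The 14 libraries fall into 5 groups: 2 of high salt at low light, 3 of check plants at low light, and at normal light 3 of check plants, 3 of low salt and 3 of high salt. The plants of all groups were 3 weeks old, and the growth medium named for all of them is Murashige and Skoog medium at 1/2 strength. The library names of the check plants hold a 0 where the others hold the salt level, so they are taken as having no added salt. No salt concentration and no light level is given, and the genotype field holds only the library name. The labels do not say whether replicates were separate plants, so the p-values given for other loci measure only how far these samples differ, and that may be technical variation.

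9-cis-epoxycarotenoid dioxygenases are plastid enzymes that cut violaxanthin or neoxanthin to xanthoxin, from which abscisic acid, the hormone of drought and salt responses, is made. The cut is regarded as the limiting step of that synthesis in leaves under water deficit. They belong to the carotenoid cleavage dioxygenases, a family whose other members make volatile fragments, pigments and the precursors of strigolactones.

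The annotation goes against the gene name. The best Swiss-Prot hit of g79474 is NCED3 at 30.38% amino-acid identity, and 797 of the 11733 tested loci with such a hit (6.79%) were at or under that value, against a median of 58.94%. The best hit in the wider protein database Nr is a partial rice protein, Os08g0371608, at 71.48%. The table gives the locus the family's domain, PF03055, and no KEGG entry. Another locus, g25657, hit the same NCED3 entry at 91.0%, matched a putative barley 9-cis-epoxycarotenoid dioxygenase at 99.62% and carries KEGG's NCED entry, K09840. That entry was also given to g25762 (NCED5, 89.1%), g1770 (NCED1, 87.12%) and g143319 (NCED3, 54.41%). The database hit of g1770 in Nr was a zeaxanthin 7,8(7',8')-cleavage dioxygenase-like protein at 96.89%, so its name differs between the 2 databases. Locus g79474 is called here a carotenoid cleavage dioxygenase locus, without a more exact name.

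Abundance of g79474 was highest in leaves under high salt at low light. It stood at 284 and 185 in the 2 libraries of high salt at low light, against 7.74, 22.9 and 7.26 in the 3 check libraries at low light, in the deposited units. These units are not named, are of a kind with TPM or FPKM, and come with no read counts, so the depth is unknown. Both salt-treated libraries lay above all check libraries at low light, the closest pair being 185 and 22.9.

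At normal light the abundance was 7.95, 35.2 and 6.72 in the check libraries, 59.2, 36.6 and 105 with low salt, and 78.9, 51.8 and 126 with high salt. In these deposited values every salt-treated library stood above every check library, and the lowest with low salt (36.6) was close to the highest check library (35.2). After scaling by median-of-ratios size factors these 2 libraries changed order, at 38.0 with low salt and 40.6 in the check. Low salt and check then overlapped. The low-salt and high-salt libraries overlapped. In both lights the check library with replicate number 2 was the highest of its group.

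**Figure D1:**
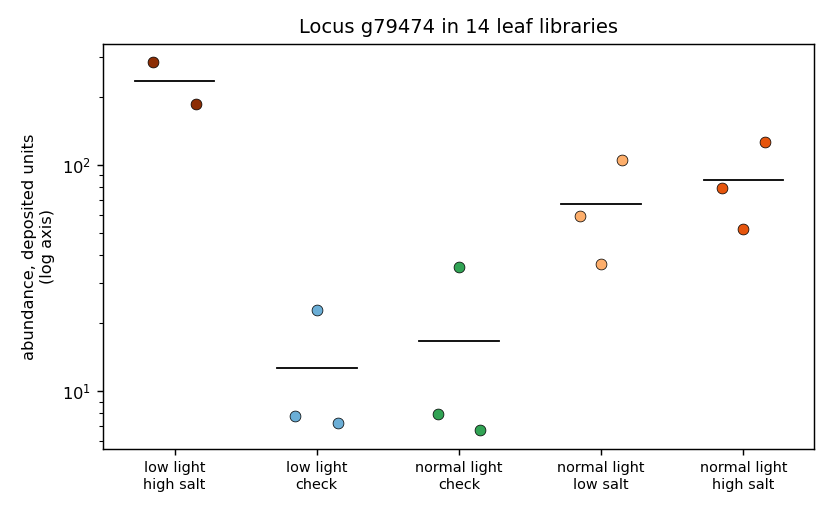
Abundance of g79474 in each of the 14 libraries, in deposited units on a log axis, by group; points are libraries and lines are group means. The 2 libraries of high salt at low light, at 284 and 185, are above the other 12, which reach 126.

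Group means were 234 ± 69.6 for high salt at low light (SD, n = 2) and 12.6 ± 8.90 for its check (SD, n = 3), a ratio of 18.5. At normal light high salt had a mean of 85.5 ± 37.4 and the check 16.6 ± 16.1 (SD, n = 3 each), a ratio of 5.14, and low salt had 66.8 ± 34.7 (SD, n = 3), 4.02 times the check. On the log2(value + 1) scale the differences were 4.26 for high salt at low light, 2.58 for high salt at normal light and 2.19 for low salt. The first exceeded the second by 1.68. Between lights, the high-salt libraries were higher at low light by 1.50 on the log2 scale, a ratio of means of 2.74, and these groups did not overlap. In check plants low light differed from normal light by -0.18, and the libraries overlapped. The sign of that last difference rested on single libraries: it was 0.53 without check replicate 2 of normal light, 0.05 without check replicate 1 of low light, 0.09 without check replicate 3 of low light and -0.68 without check replicate 2 of low light. The excess of 1.68 was 0.97 without check replicate 2 of normal light. The log2 SD of g79474 within groups was 0.86. In these bulk leaf samples, more RNA per cell and more cells of a type that holds it cannot be told apart.

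The order of the group means was low light check, normal light check, normal light low salt, normal light high salt and low light high salt. Neighbours in that order overlapped at the 2 checks and at the 2 salt levels, while the 2 high-salt groups did not. The normal-light check and low salt did not overlap as deposited, but did after median-of-ratios scaling. The locus has a single transcript in the table, so it gives no isoforms to compare.

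Loci with a fungal best hit in Nr, 798 of them by genus, were also most abundant in the group where g79474 was highest. Their summed abundance was 789 and 681 in the libraries of high salt at low light, where it took 0.133% to 0.161% of the library. It was 78.3, 358 and 290 in the check libraries at low light, 12.8, 12.2 and 16.2 in the check at normal light, 16.1, 531 and 79.0 with low salt, and 7.42, 97.7 and 105 with high salt at normal light. Their part in the level of g79474 was not tested.

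Leaf mesophyll markers (87 loci of photosynthesis) took 8.51% to 19.6% of every library, and none of them was at 0 throughout, so photosynthetic leaf transcripts were present in all 14. Their sum was lowest in the same library that had the highest g79474 in each of the 3 salt-treated groups, a pattern noticed after the values were seen. It was 41600 against 79417 under high salt at low light, 52901 against 68165 and 84836 with low salt, and 45459 against 70624 and 80734 with high salt at normal light. The check groups did not show it. The part of mesophyll content in the result was not tested. The other marker lists were smaller: 5 guard cell loci took at most 0.0221% of a library, 2 root loci at most 0.0268% and 28 loci of dividing cells at most 0.0732%.

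A set of 4 other loci of the same family had the profiles most like that of g79474. Likeness was Pearson's r of log2(value + 1) over the 14 libraries, against 11728 described loci that passed the filter. The values were 0.946 for g20126, 0.926 for g1357, 0.923 for g84230 and 0.889 for g137063. The median over all loci compared was 0.129, 16 loci reached 0.8 and 3 reached 0.9. These libraries share their 5 groups, and r after removing the group means was still 0.942, 0.945, 0.929 and 0.942. The names of these 4 loci rest on weak hits as well: NCED2 for g20126 (29.41%), NCED1 for g137063 (34.76%) and a zeaxanthin 7,8(7',8')-cleavage dioxygenase, an enzyme of saffron stigma, for g1357 (30.21%) and g84230 (30%). The Nr hits of the 4 and of g79474 were partial grass proteins without a named function, or a rice carotenoid 9,10-cleavage dioxygenase, at 60.77% to 79.23%. Near-identical copies may share reads, and how the authors divided such reads between transcripts is not stated.

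**Figure D2:**
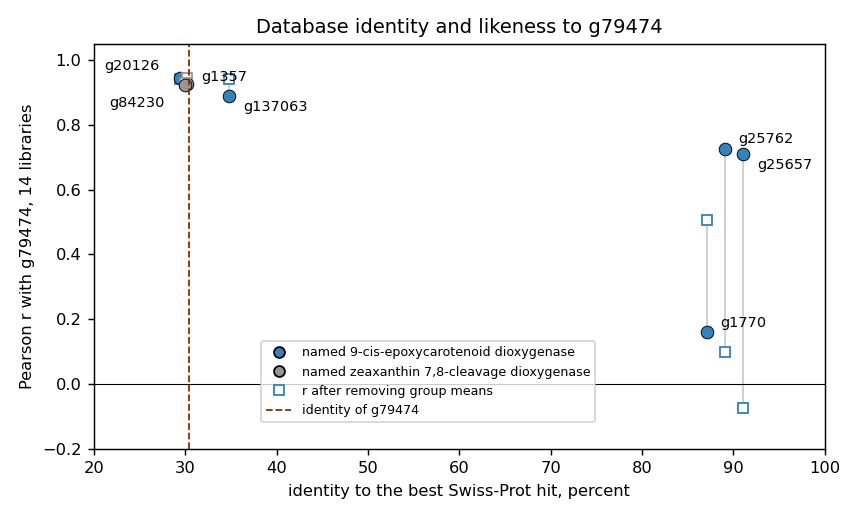
Identity to the best Swiss-Prot hit against Pearson r with g79474 over 14 libraries. Shown are the 7 other tested loci with the PF03055 domain in their most abundant annotated transcript. Circles are r as measured, open squares r after removing group means, and the dashed line is the identity of g79474. The 4 loci near 30% to 35% identity have r of 0.889 to 0.946, and the 3 near 87% to 91% have r of 0.159 to 0.726.

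Locus g84230 has a single transcript, as g79474 has. It had 56.8 and 62.3 under high salt at low light, against 8.03, 25.04 and 7.44 in its check. At normal light it had 7.25, 17.2 and 4.81 in the check libraries, 37.2, 31.9 and 104 with low salt, and 69.1, 45.1 and 109 with high salt. As in the deposited values of g79474, the salt-treated libraries stood above the check ones in both lights, and replicate 2 of each check group was the highest. Unlike g79474, its libraries of high salt at low light fell within the range of high salt at normal light.

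The relatives with several transcripts, g20126 with 9 and g1357 with 6, also had their lowest group means in the 2 check groups. Locus g20126 had 884 and 981 under high salt at low light, against 99.8, 342 and 68.6 in its check. At normal light g20126 had 74.7, 250.0 and 46.4 in the check libraries, 413, 241 and 1293 with low salt, and 724, 294 and 1230 with high salt. Only its low-salt libraries overlapped a check of their light. Locus g1357 had 581 and 635 under high salt at low light, against 67.8, 241 and 73.4 in its check, and at normal light 477 to 1122 with high salt against 47.5 to 179 in the check libraries. Locus g137063 had 32.2 and 35.5 under high salt at low light against 4.35, 14.3 and 5.33 in its check, and its high-salt and check libraries at normal light overlapped, at 32.3 to 69.1 against 2.68 to 38.7.

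**Figure D3:**
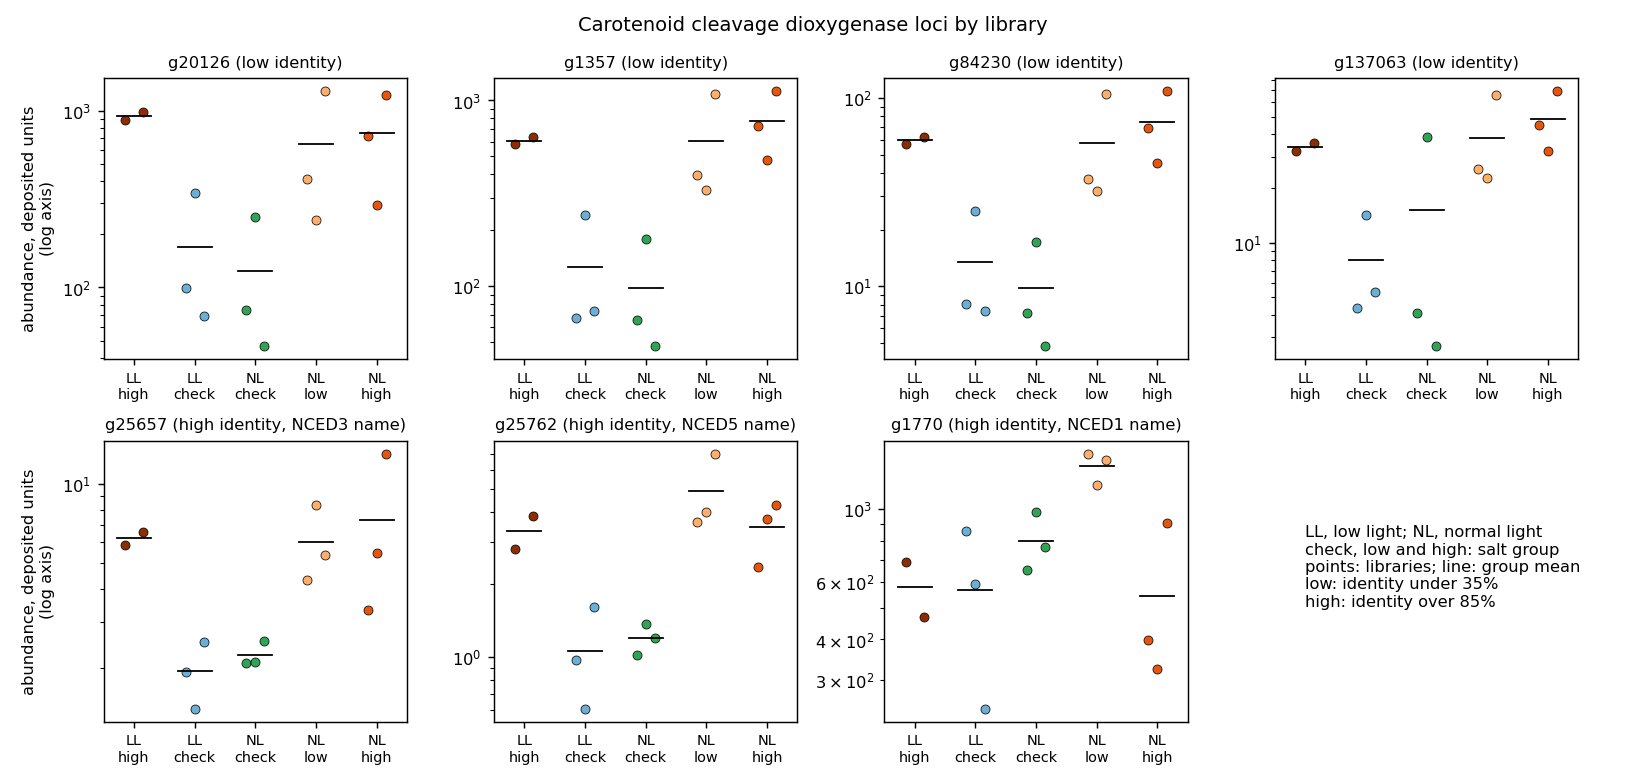
Abundance of 7 other carotenoid cleavage dioxygenase loci in each library, in deposited units on log axes that differ between panels; points are libraries and lines are group means. In the 4 loci of low identity the 2 points of high salt at low light lie within or near the range of high salt at normal light; g25657 and g25762 have their lowest values in the 2 check groups, and g1770 has its highest with low salt.

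The ratio of g79474 to its relatives separated the libraries of high salt at low light from the rest. The ratio g79474 over g84230 was 4.99 and 2.97 there, against 0.915 to 2.05 in the other 12 libraries (mean 1.22 ± 0.32, SD, n = 12). Over g1357 it was 0.488 and 0.292, against 0.0952 to 0.197 in the other 12. Over g137063 it was 8.81 and 5.22, against 0.910 to 2.50, and over g20126 it was 0.321 and 0.189, against 0.0670 to 0.176. Groups did not overlap in any of the 4 ratios, though over g20126 the gap was small. The ratios hold the level of g79474, by which the locus was chosen, so they are a description.

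Summed, the 5 loci reached 1837 and 1899 under high salt at low light, against 162 to 645 in its check. At normal light the sum was 108 to 520 in the check libraries, 660 to 2648 under low salt, and between 901 and 2655 under high salt. Locus g79474 made up 15.4% and 9.75% of the sum under high salt at low light, and 3.55% to 6.78% of it in the other 12 libraries.

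**Figure D4:**
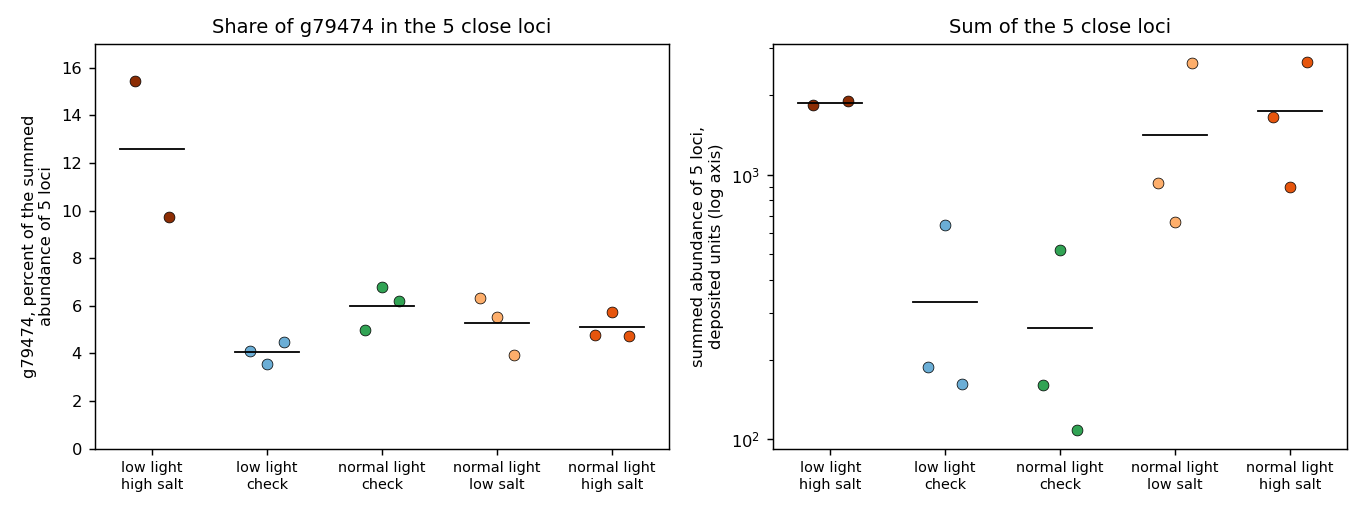
Left, g79474 as a percent of the summed abundance of g79474, g20126, g1357, g84230 and g137063 in each library; right, that sum in deposited units on a log axis; points are libraries and lines are group means. The share is 15.4% and 9.75% under high salt at low light and at most 6.78% elsewhere, while the sum there lies within the range of high salt at normal light.

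Among the 17 transcripts of the 4 relatives 1 was higher by more than 1 log2 unit under high salt at low light than under high salt at normal light. The median difference of high salt at low light from high salt at normal light was -0.02 on the log2 scale, and 8 of the 17, all of g20126, were above 0. Transcript g20126_i16 differed by 1.56, with 156 and 146 at low light against 54.6, 21.8 and 106 at normal light. The other transcripts of g20126 ran from -0.02 to 0.81, and the 6 of g1357 from -0.35 to -0.17. The difference of high salt from check at normal light ran from 2.20 to 3.09 over the 17. The transcript g20126_i16 was singled out after its values were seen. It has no Swiss-Prot hit and matched a rice carotenoid 9,10-cleavage dioxygenase at 61.36% in Nr.

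Among the 3 tested loci with strong NCED hits, g25657 and g25762 stood above the check of their light in every salt-treated library, and g1770 did not. How many of all tested loci separate in this way was not counted, so the lack of overlap is only a description. Locus g25657, the one with 91.0% identity to NCED3, had 5.88 and 6.59 under high salt at low light, against 1.93, 1.39 and 2.50 in its check. At normal light g25657 had 2.08, 2.10 and 2.54 in the check libraries, 4.30, 8.36 and 5.39 with low salt, and 3.33, 5.45 and 13.0 with high salt. All salt-treated libraries stood above all check libraries. In limma with Benjamini-Hochberg adjustment over all 20567 loci, its differences were 1.31 ± 0.43 for high salt at low light (log2, SE, adjusted p = 0.334), 1.18 ± 0.38 for high salt at normal light (adjusted p = 0.0965) and 1.08 ± 0.38 for low salt (adjusted p = 0.290), none past 0.05. Its 4 transcripts had log2 differences for high salt at normal light of 0.67 to 0.89.

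Locus g25762, the NCED5 hit, had 2.81 and 3.86 under high salt at low light, against 0.969, 0.605 and 1.61 in its check. At normal light g25762 had 1.01, 1.37 and 1.20 in the check libraries, 3.66, 4.02 and 7.01 with low salt, and 2.36, 3.76 and 4.29 with high salt. Again no salt-treated library overlapped a check library of its light. The limma differences were 1.09 ± 0.34 for high salt at low light (adjusted p = 0.295), 1.00 ± 0.30 for high salt at normal light (adjusted p = 0.0786) and 1.39 ± 0.30 for low salt (adjusted p = 0.129).

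Locus g1770 did not share the pattern. It had 691 and 467 under high salt at low light, against 859, 592 and 245 in its check. At normal light g1770 had 651, 983 and 769 in the check libraries, 1474, 1187 and 1410 with low salt, and 399, 324 and 910 with high salt. Low salt stood above the check without overlap, with a limma difference of 0.77 ± 0.46 (adjusted p = 0.546), and high salt overlapped the check, at -0.69 ± 0.46 (adjusted p = 0.389). Its r with g79474 was 0.159, against 0.709 for g25657 and 0.726 for g25762.

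After removing the group means, r with g79474 was -0.07 for g25657, 0.10 for g25762 and 0.51 for g1770. Within groups, therefore, neither g25657 nor g25762 went along with g79474 as the 4 weak-hit relatives did. The last 2 loci named 9-cis-epoxycarotenoid dioxygenase did not pass the filter. Locus g9950 (NCED1, 32.76%) stayed between 0.121 and 0.910 in all libraries. Locus g143319 was listed at 0 in 12 of the 14 libraries and at 0.164 and 1.94 in the other 2, both of high salt at normal light.

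Of the 7 other loci named 9-cis-epoxycarotenoid dioxygenase 5 were tested, and limma called none of them in any of the 6 comparisons at an adjusted p under 0.05. Over all tested loci the share called was 3.94% for high salt at normal light (2.98% higher), 0.0681% for low salt, 14.9% for low light in check plants, 0.574% for high salt at low light, 0.656% for low light under high salt and 0.209% for the interaction. An unadjusted p under 0.05 was reached by 4 of the 5 for high salt at normal light, against 23.7% of all tested loci, by 4 of 5 for low salt, against 11.99%, and by 4 of 5 for high salt at low light, against 8.27%. It was reached by 0 of 5 for low light in check plants, against 31.6%, for low light under high salt, against 10.4%, and for the interaction, against 14.5%. The median differences were 1.18 for high salt at normal light, 1.39 for low salt and 1.31 for high salt at low light, against 0.29, 0.14 and 0.02 over all tested loci. In each comparison of salt with check the 4 loci were g20126, g137063, g25657 and g25762. Loci g20126 and g137063 have weak hits and profiles like that of g79474 (r 0.946 and 0.889). They largely repeat the profile by which g79474 was chosen, so these counts and medians are not independent of that choice.

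By domain, 10 other loci carry PF03055 and 7 were tested. Of the 7 tested loci, g1357 and g84230 were higher with high salt at normal light, where 2.98% of all tested loci were. No other call was made in any comparison. Both loci have profiles like that of g79474 (r 0.926 and 0.923). They largely repeat the profile by which g79474 was chosen, so their calls are not independent of that choice. Locus g1357 had a difference of 3.13 ± 0.62 (log2, SE, limma adjusted p = 0.0273) and g84230 of 2.89 ± 0.57 (adjusted p = 0.0275). Both calls were lost without check replicate 1, check replicate 3, high-salt replicate 1 or high-salt replicate 2 of normal light, where the adjusted p reached 0.108. They were also lost with only the groups compared in the fit (adjusted p of 0.0599 and 0.0593). For low light under high salt, the comparison in which g79474 stood apart, the differences of the 4 weak-hit relatives were 0.54 ± 0.90 for g20126, -0.23 ± 0.64 for g84230, -0.27 ± 0.69 for g1357 and -0.45 ± 0.86 for g137063 (limma adjusted p of 0.882, 0.946, 0.940 and 0.905). A difference of 1 log2 unit in either direction lies within 2 SE of each of these 4 values.

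**Figure D5:**
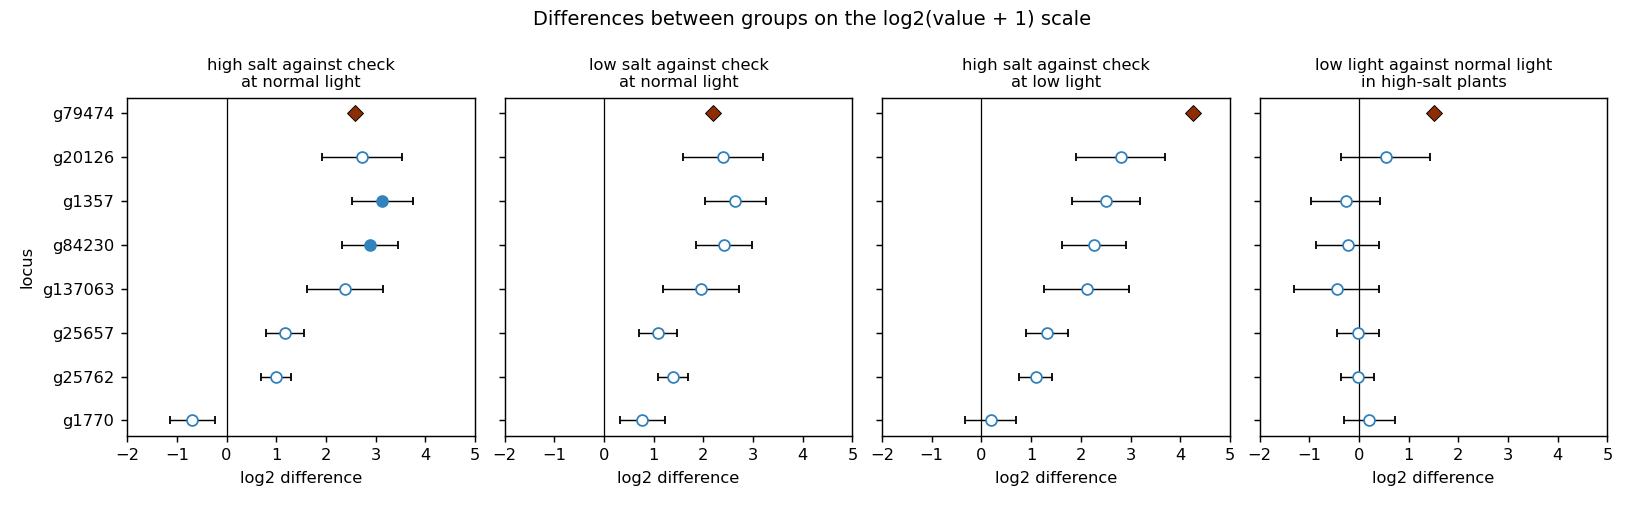
Log2 differences of g79474 (diamonds, no test) and 7 other loci (circles, with SE from limma) in 4 comparisons; filled circles have an adjusted p under 0.05. Locus g79474 is at 2.58 and 2.19, among its 4 weak-hit relatives, for salt at normal light, and at 4.26 and 1.50, to their right, in the comparisons with high salt at low light.

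Outside the family, the described loci most like g79474 included 2 from the abscisic acid lists, g19539 and g27188. They were ferritin-1, a plastid iron store (g129331, r 0.871), bZIP transcription factor 23, an abscisic acid response factor of rice (g19539, 0.864), protein phosphatase 2C 51 (g27188, 0.852), a proline-tRNA ligase (g23220, 0.843), a cysteine-rich receptor-like kinase named 27 (g26807, 0.832) and a chloroplast 31 kDa ribonucleoprotein (g22213, 0.816). The least like were a cysteine-rich receptor-like kinase named 24 (g22474, -0.825), hexokinase-7 (g26227, -0.767) and a serine/threonine phosphatase 7 homolog (g79395, -0.759). With the group means removed, r was 0.444 for g19539 and 0.387 for g27188, so much of their likeness lay between groups.

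Phosphatase g27188 had 2.25 and 2.61 under high salt at low light, against 0.0413 to 0.139 in its check. In normal light it had 0.507 to 2.76 with high salt, against 0 to 0.164 in the check libraries. Its limma difference was 1.66 ± 0.35 for high salt at low light (adjusted p = 0.0649) and 1.17 ± 0.31 for high salt at normal light (adjusted p = 0.0560). Both fell short of the threshold. The groups did not overlap, but g27188 was picked for its likeness to g79474. It reached 1 only in high-salt libraries, so it passed the filter through the groups where it is high. Its check values lie near 0, and its differences are a description with no support of their own.

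The abscisic acid pathway was followed in 11 lists of loci, 74 in all beside g79474, of which 63 were tested. For high salt at normal light 5 of the 63 were called, 2 higher and 3 lower, against 3.94% of all loci. For low salt 1 was lower, against 0.0681%, and for low light in check plants 5 were higher and 11 lower, against 14.9%. None was called for high salt at low light, for low light under high salt or for the interaction. At an unadjusted p under 0.05 there were 17, 7 and 7 of the 63 in these 3 comparisons, against 8.27%, 10.4% and 14.5% of all tested loci. The medians of the 63 were 0.36, 0.20, -0.09, 0.19, 0.03 and 0.13 in these 6 comparisons, against 0.29, 0.14, 0.35, 0.02, 0.08 and -0.24 over all tested loci. Of the pathway loci 18 rest on an identity under 50%, g20126 and g137063 among them. Scaling the libraries by median-of-ratios size factors turned the balance of calls over all loci. High salt at normal light gave 613 higher (2.98%) and 198 lower (0.963%), but 153 higher (0.744%) and 412 lower (2.00%) once scaled. Low light in check plants gave 2196 higher (10.7%) and 878 lower (4.27%), but 727 (3.53%) and 1450 (7.05%) once scaled. For the pathway the scaled split was 1 higher and 5 lower with high salt, and 2 higher and 16 lower with low light. Single libraries decided many of these calls: the 5 with high salt became 0 without check replicate 1, check replicate 3 or high-salt replicate 1 of normal light, 2 without its high-salt replicate 2, and 3 without either library of high salt at low light. The 16 with low light became 6 without check replicate 1 or 3 of normal light and 8 without check replicate 3 of low light.

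Upstream of the dioxygenases, several carotenoid enzymes were lower with high salt and with low light, and none was higher. Of 19 tested loci 3 were lower with high salt at normal light (median -0.75), where 0.963% of all loci were, and 10 with low light in check plants (median -1.26), where 4.27% of all loci were. With low salt 1 was lower, where 0.0681% of all loci were called in either direction. After scaling the first 2 counts were 5 and 14, where 2.00% and 7.05% of all loci were lower. The leaf mesophyll sum moved with the comparison of lights as well: it was 53828, 56654 and 59160 in the low-light check libraries, against 114132, 87957 and 75744 in the normal-light ones, with no overlap. With high salt at normal light it was 70624, 80734 and 45459, overlapping that check. Its part in the precursor calls was not tested. Phytoene synthase 2 (g26608), the first committed enzyme of carotenoid synthesis, averaged 41.3 ± 11.7 in low-light check leaves and 300.2 ± 41.9 in normal-light check leaves (SD, n = 3 each), a limma difference of -2.86 ± 0.33 (adjusted p = 0.00118). With high salt at normal light g26608 averaged 96.9 ± 32.7 (SD, n = 3), a difference of -1.67 ± 0.33 (adjusted p = 0.0278). The phytoene desaturase g8578, which acts on its product, averaged 49.3 ± 10.9 with high salt and 105.9 ± 22.9 in the check (SD, n = 3 each), a difference of -1.09 ± 0.25 (adjusted p = 0.0395).

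Prolycopene isomerase g19716 was lower in all 3 comparisons with the normal-light check. It averaged 3.43 ± 1.298 with low salt, 6.76 ± 1.54 with high salt and 5.04 ± 2.03 with low light, against 22.8 ± 6.93 in the normal-light check (SD, n = 3 each; limma adjusted p of 0.0197, 0.0287 and 0.00332). Its name rests on 30.5% identity. Those of g17902 and g25168 rest on 31.51%, and these loci were lower with low light by -1.35 ± 0.30 and -1.26 ± 0.30. The call of g25168 was lost with 3 of 14 libraries left out in turn (limma adjusted p up to 0.0600). It was also lost with only the groups compared (0.0511). The call of g17902 stood in all 14 omissions. Both loci have 96.72% identity in Nr, and each was counted. The calls of these precursors with high salt each depended on single libraries: that of g26608 was lost without check replicate 1 or 3 or high-salt replicate 1, that of g19716 in 5 of 14 omissions and that of g8578 in 7. These comparisons share the normal-light check libraries. At low light, high salt left the 19 with a median of -0.06 and no call. Only 4 of all 20567 tested loci were lower there, and their median was 0.02. The lack of a call therefore does not show that salt had no effect on these 19 at low light.

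After the dioxygenase step, none of the 7 tested loci was called with salt, where 3.94% of all tested loci were called with high salt at normal light. With low light 1 of the 7 was higher, where 10.7% of all tested loci were. An aldehyde oxidase (g1834, KEGG AAO3), of the kind that makes abscisic acid from its aldehyde, was higher with low light in check plants, with a mean of 26.3 ± 18.0 in low light and 8.27 ± 0.80 in normal light (SD, n = 3 each; 1.35 ± 0.36, limma adjusted p = 0.0272). That call was lost after scaling (adjusted p = 0.102) and in 3 of 14 omissions (up to 0.0915). In the breakdown list the 8'-hydroxylase g15823, which inactivates the hormone, had 14.1 and 20.9 under high salt at low light and 5.97, 6.42 and 16.1 in its check, and no call was made. The 2 other carotenoid cleavage dioxygenases, g20766 and g169999, did not pass the filter. The best hit of g169999 in Nr was a fungus, Rachicladosporium antarcticum.

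In signalling, the single tested receptor (g81177, PYL9) was not called. Clade A phosphatases hold the pathway off until the receptors bind the hormone. Of 6 tested, 1 was lower with low light, where 4.27% of all tested loci were. This locus, g82406 (protein phosphatase 2C 75), was listed at 0 in the 3 low-light check libraries. It was at 0.680, 4.33 and 5.23 in the normal-light ones (limma adjusted p = 0.0202). That call was lost without check replicate 1 or 3 of normal light (adjusted p up to 0.0940) and with only the groups compared (0.0893). All 6 phosphatases had a positive sign with high salt at normal light, with a median of 0.94 and no call. The median over all tested loci was 0.29 there, and 0.03 after scaling, so a positive sign was common in the deposited values. The phosphatase g27188, among the 6, passed the filter only through high-salt libraries. Of 3 SnRK2 kinases, the activators downstream, g21968 (SAPK5) was higher with low light by 1.52 ± 0.38 (adjusted p = 0.0209, 0.0953 after scaling and up to 0.0843 in 3 of 14 omissions). With low light 10.7% of all tested loci were higher, so a single call in a list this small is not read as a result about the list. None of the 2 tested transport loci was called, the more abundant being g17217 (NRT1/PTR family 4.6, 38.46% identity). The Nr hit of g17217 was NRT1/PTR family 4.3 at 84.04%, so its name differs between the 2 databases.

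Among 6 transcription factors of the response, bZIP12 (g8980) was higher with high salt at normal light, where 2.98% of all tested loci were. It had 11.5, 2.95 and 3.88 with high salt and 0.724, 0.623 and 0.579 in the check, a difference of 1.92 ± 0.46 (limma adjusted p = 0.0443). That call stood in 5 of 14 omissions of a library and was lost after scaling (adjusted p = 0.0603). An ABI5-like factor (g8687) was higher with low light by 1.04 ± 0.22 (adjusted p = 0.00979, and 0.0881 after scaling). Of 12 tested responsive proteins, dehydrin DHN3 (g97223), a desiccation-protection protein, was higher with high salt at normal light, at 3.68, 4.66 and 17.5 against 0, 0.454 and 0.383 in the check (2.64 ± 0.57, adjusted p = 0.0355). It was lost in 4 of 14 omissions and with a pseudocount of 0.1 (adjusted p = 0.0510). In the 2 libraries of high salt at low light DHN3 had 6.06 and 2.60, against 0.407, 0.159 and 1.47 in its check. Under low light in check plants, 2 HVA22-like loci (g97574 and g97575) were higher, by 1.29 ± 0.26 and 1.63 ± 0.28 (adjusted p of 0.00815 and 0.00386). They are 2 of the 12 responsive proteins, and g8687 is 1 of the 6 factors, where 10.7% of all tested loci were higher. DHN3 is 1 of 12, against the 2.98% with high salt at normal light. Counts in lists this small are not read as results about the lists.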

How the data were processed

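Leaf total RNA was sequenced in 14 libraries. The submitters' processing notes name Bowtie 0.12.2, HISAT2 2.0 and StringTie 1.3.0, and as genome build mm8, a mouse build, with no role given, and the labels' protocols mention rice leaves in the extraction step. The assembly and the quantification are not described in the sources used here. The file deposited by the authors holds 1 signal value per transcript and library, never negative and of unnamed unit. The table ends at its format's 65536 lines, so genes past it are not analysed here. Leaving out 4 broken lines and the 3 loci at its edges (17 transcripts), 65514 transcripts made up 29560 loci, of which 19020 had a single transcript. Library sums were 470162 to 581690. No counts are given, so precision rests on the spread between libraries (replicates correlated at 0.846 to 0.953).

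Loci at 1 or more in at least 2 libraries (20567) were fitted on log2(value + 1) with limma 3.58.1 (R 4.3.3), 1 mean per group over 14 libraries, eBayes with trend and robust, Benjamini-Hochberg adjustment, called under 0.05. The script was tested on simulated data. A locus takes its name, identity and domain from its most abundant annotated transcript, and names are database hits. "Scaling" means median-of-ratios size factors. The pathway lists were matched by text in Swiss-Prot names. The locus, the lists and the tests were chosen with earlier results of these data known. Named are g79474, all other loci named 9-cis-epoxycarotenoid dioxygenase, per list up to 4 called members per comparison or else the most abundant one, and the 10 described loci most and 3 least like g79474. The relatives with the PF03055 domain were added after the table was seen. Same-numbered libraries did not deviate together over all tested loci (26 correlations, -0.17 to 0.15). That cannot settle whether the numbers pair samples, since deviations within a group sum to 0 and the labels do not say. In g79474 the order by number was the same with low and with high salt at normal light. The main fit has no replicate term, and the replicate block is an alternative. Python 3.11.15, pandas 2.3.3 and matplotlib 3.10.9 made tables and figures. No nucleotide or protein sequence of these loci was used here.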

Additional observations from a re-analysis of the deposited data

How the results depend on the processing

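The log2 differences of g79474 kept their sign and moved by less than the within-group SD under median-of-ratios scaling, a pseudocount of 0.1 and the replicate block. The locus has 1 transcript, so taking the most abundant one leaves its values as they are and tests nothing. They ran from 2.22 to 2.69 for high salt and 2.01 to 2.29 for low salt at normal light, 4.20 to 4.38 for high salt at low light, 1.38 to 1.51 for low light under high salt, 1.68 to 1.99 for the interaction and -0.61 to -0.18 for low light in check plants. Leaving out 1 library gave 2.17 to 3.29, 1.79 to 2.90, 3.96 to 4.76, 1.19 to 1.82, 0.97 to 2.18 and -0.68 to 0.53 in the same order.

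Counts of called pathway loci depended on the fit. With high salt at normal light the 5 became 2 without the filter on low values and 0 with only the groups compared in the fit, and 0 to 7 when 1 library was left out. The 1 with low salt became 0 with only the groups compared, and 0 to 2 with 1 library left out: 0 without check replicate 1 or low-salt replicate 3, and 2 without check replicate 2. The 16 with low light in check plants became 6 with only the groups compared, and 6 to 17 with 1 library left out. The 0 for high salt at low light became 1 without the filter and 1 under the replicate block, and 0 to 1 with 1 library left out. For low light under high salt and for the interaction the count was 0 in all alternatives. The cause of these changes was not tested, beyond the smaller number of samples in the fits of only the groups compared and the larger number of loci without the filter. The labels give shared replicate numbers. Same-numbered libraries did not deviate together over all tested loci, which does not settle whether the numbers pair samples. With the replicate block the counts were 4 with high salt (3 higher and 1 lower), 1 with low salt and 15 with low light. Of the 5 calls with high salt, g19716 (adjusted p = 0.0527), g8578 (0.0572) and g8980 (0.0627) were no longer called under the block, while g26608 (0.0444) and g97223 (0.0450) were.

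The depth is unknown, loci under 1 in all but 1 library were not tested, and the group of high salt at low light has 2 libraries.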
